A study of Mus musculus with 6 samples.

Results

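The GATA, TAL1 and RUNX1 complex genes are 10 genes for the transcription factors, cofactors and bridging proteins that bind together at blood stem cell and megakaryocyte-erythroid enhancers: Gata1, Gata2, Tal1, Lyl1, Lmo2, Ldb1, Zfpm1, Gfi1b, Gfi1 and Runx1. They were chosen by name, with earlier results of these data known. Each symbol matched exactly 1 of the 47561 rows of counts, and all 10 passed the filter on low counts that left 16022 genes for testing. The RNA was that of LT-HSCs, the long-term hematopoietic stem cells, which are the self-renewing cells at the top of the blood hierarchy, sorted from mouse bone marrow. There were 3 libraries from mice titled Piezo1 KO, which should lack PIEZO1, a cation channel opened by membrane tension, and 3 from control mice with a WT genotype label. The labels give no age, sex, strain, Cre driver or deleted exon, and nothing in them says that each library was a separate animal, so every p-value measures the spread between these libraries, which may be technical. The genotype tags of KO replicates 2 and 3 carry other Piezo numbers than their titles, as do the descriptions of control replicate 3 and of all KO libraries, and the titles were followed.

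In hematopoietic cells GATA2 is the GATA factor of stem and early progenitor cells, and GATA1 takes over its sites as megakaryocytic and erythroid cells mature, a handover known as the GATA switch. GATA1 works with the cofactor FOG1, encoded by Zfpm1. TAL1 and its close relative LYL1 are basic helix-loop-helix proteins that pair with E proteins such as E2A, and LMO2 and LDB1 tie such pairs to a GATA factor in a single complex. GFI1B and GFI1 are related zinc-finger repressors that recruit the demethylase LSD1, the first mainly in megakaryocyte-erythroid cells and the second mainly in granulocytic and lymphoid cells. RUNX1 binds DNA with its partner CBF-beta and is required for stem cells to arise in the embryo and for megakaryocytes to mature.

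Total counts per library lay between 59435258 and 64653956. Piezo1 had 255, 481 and 590 counts in the KO libraries and 1027, 479 and 1351 counts in the control libraries, so the groups overlapped and control replicate 2 stood at the KO level. Its log2 fold change was -1.15 (SE 0.56) with an edgeR adjusted p = 0.508, and where an allele removes some exons only, reads from the others still count. Every direction below therefore rests on the library titles. Over all genes, control replicate 3 lay nearer to the KO libraries, at a chi-square per gene of 280, 258 and 321, than to control replicates 1 and 2, at 364 and 376. All 10 LT-HSC markers had counts, with summed levels of 787 to 934 CPM (the usual depth-scaled unit, here relative to the TMM-adjusted library total) in KO and 874 to 1196 CPM in control. Erythroid marker genes, mostly globins, summed to 7336 to 25398 CPM in KO and 740 to 4730 CPM in control, and megakaryocyte and platelet markers to 1692 to 2497 CPM in KO and 790 to 1079 CPM in control. Granulocyte markers summed to 120, 604 and 1176 CPM in KO replicates 1, 2 and 3. The sums were 176 and 226 CPM in control replicates 1 and 2 and 12260 CPM in control replicate 3. In bulk RNA a smaller share of a cell type and less RNA per cell cannot be told apart.

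On GRCm38 (GENCODE M21 annotation, matched by symbol), Gata1 lies on chromosome X at 7959260 to 7978071 and Gata2 on chromosome 6 at 88193891 to 88207032. Tal1 lies on chromosome 4 at 115056426 to 115071755, Lmo2 on chromosome 2 at 103957986 to 103981878 and Gfi1b on the same chromosome at 28609450 to 28621982. Lyl1 and Zfpm1 share chromosome 8, at 84701457 to 84704715 and 122282141 to 122337251. Ldb1 lies on chromosome 19 at 46031570 to 46045214, Gfi1 on chromosome 5 at 107716657 to 107726036 and Runx1 on chromosome 16 at 92601466 to 92826149. Each value below counts reads over the exons of the whole gene.

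The promoters show which of the proteins' own binding letters lie just upstream of the members. RefSeq (GRCm38.p6) held 15 promoter windows for 9 members; Lmo2 was not matched. Both strands of the 250 bases before each start were searched. The words were AGATAA, read by GATA factors, and its variant spelled TGATAA; the E-box of TAL1 dimers written CAGCTG or, in another form, as CAGATG; the RUNX word TGTGGT; the GFI core AATCAC, which is contained in the looser word AATCNC; the KLF word CACCC; and the ETS core GGAA. A GATA word stood in 3 of the 15 windows, 20.0%, against 16.6% of all 32851 windows, and the 3 belonged to Gfi1b, Tal1 and Ldb1. AATCNC was in 40.0% of the member windows and 29.4% of all windows, CACCC in 73.3% and 52.0%, and GGAA in 93.3% and 93.4%. None of the 15 windows held either E-box or the RUNX word, where 13% of all windows held the E-box CAGCTG, 14.4% the form with CAGATG, and 14% the word of RUNX factors. A match of letters is a description and not a binding site.

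Below, 5 stretches are printed 5′ to 3′ on the gene's own strand. They are the 3 with a GATA word, of which Gfi1b is the member lowest in KO relative to control, the GFI word nearest the inner start of Runx1, and the CACCC words of Zfpm1, the member highest relative to control. Capitals mark the matched word. In Gfi1b it reads as listed, and in the other 4 it lies on the opposite strand, so that the GATA word appears as TTATCT in Tal1 and Ldb1, the GFI word as GTGATT in Runx1 and the KLF word as GGGTG in Zfpm1. Apart from the AATCNC that holds the GFI word, the matches printed overlap no other word searched. The stretches lie at chr2:28622067-28622132 (Gfi1b, minus strand), chr4:115056191-115056256 (Tal1, plus), chr19:46037235-46037320 (Ldb1, minus, the innermost of 3 windows), chr16:92697388-92697453 (Runx1, minus) and chr8:122281891-122282068 (Zfpm1, plus), all in GRCm38.p6.
Gfi1b: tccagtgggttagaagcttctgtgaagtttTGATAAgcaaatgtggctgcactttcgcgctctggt
Tal1: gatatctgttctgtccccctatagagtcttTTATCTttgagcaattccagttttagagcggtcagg
Ldb1: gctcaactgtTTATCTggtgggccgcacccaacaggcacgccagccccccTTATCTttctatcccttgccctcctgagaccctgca
Runx1: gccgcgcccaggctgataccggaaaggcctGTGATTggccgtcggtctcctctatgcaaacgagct
Zfpm1: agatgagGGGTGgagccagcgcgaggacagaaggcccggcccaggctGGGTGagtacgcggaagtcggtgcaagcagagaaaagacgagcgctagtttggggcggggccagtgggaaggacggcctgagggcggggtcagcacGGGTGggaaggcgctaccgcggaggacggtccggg

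Per length, Lmo2 was by far the most abundant member in both groups. Its transcript level, in CPM per kilobase of the longest coding transcript, averaged 350.5 ± 23.7 in KO and 326.9 ± 28.8 in control (SD, n = 3 each, here and below). Gfi1b came next at 66.5 ± 13.4 in KO and 110.3 ± 15.9 in control, and Gata1 the third at 43.3 ± 13.1 in KO and 52.8 ± 13.5 in control. In KO libraries Gata2 followed at 42.3 ± 10.6, Tal1 at 32.8 ± 6.71, Lyl1 at 31.7 ± 8.57, Zfpm1 at 21.2 ± 4.36, Ldb1 at 19.4 ± 1.27 and Runx1 at 17.4 ± 6.83 CPM per kilobase. Each neighbour in that run overlapped the next in its 3 libraries, while Lmo2 stood clear of Gfi1b, the lowest Gfi1b library (55.0) lay just above the highest Gata1 library (53.8), and Runx1 stood clear of Gfi1. In control libraries the order below Gata1 was Lyl1 at 40.0 ± 11.7, Gata2 at 28.1 ± 7.07, Tal1 at 19.2 ± 9.93, Ldb1 at 11.7 ± 3.14, Zfpm1 at 10.04 ± 3.39 and Runx1 at 9.84 ± 1.13, each overlapping the next, and Gfi1b again stood clear of Gata1. Gfi1 was last by a wide gap, at 0.696 ± 0.534 in KO and 0.792 ± 0.460 in control. Counted over all annotated exons together, which for Runx1 span 12025 bases against 5861 in its longest transcript, Gata2 dropped to the sixth place in KO and Runx1 to 8.47 CPM per kilobase in KO and 4.798 in control.

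**Figure D1:**
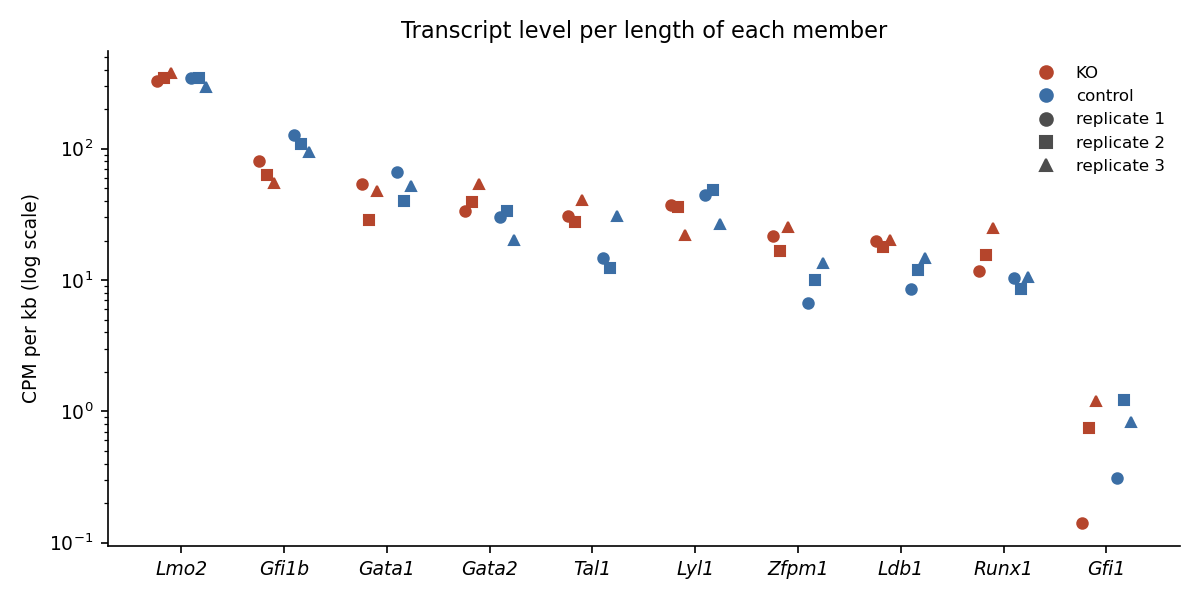
Transcript level of each member in CPM per kilobase of its longest coding transcript, on a log axis, with KO libraries in red to the left of control libraries in blue and 1 symbol per replicate number. Lmo2 lies at 293.6 CPM per kilobase or above in every library and Gfi1 at 1.23 or below.

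No member passed an adjusted p under 0.05 in edgeR's quasi-likelihood test, nor did any of the 16022 genes (0%). At an unadjusted p under 0.05, Zfpm1, Ldb1 and Runx1, 3 members, were higher in KO, against 5.44% of all genes, and 1 was lower (Gfi1b), against 5.59% of all genes. Without KO replicate 3, the members higher by that measure numbered 1 in place of 3, and without control replicate 2 there were 2. Without control replicate 3 there were 4, with 1 lower, and the log2 fold changes were 1.35 for Zfpm1, 1.28 for Tal1, 0.92 for Ldb1, 0.88 for Runx1 and -0.83 for Gfi1b. In Zfpm1, Ldb1, Runx1 and Gfi1b the groups did not overlap. KO lay wholly above control in 10.7% of all tested genes and wholly below in 8.76%. DESeq2 called 1 member higher (Zfpm1), where it called 1.64% of 14920 genes higher, and 1 lower (Gfi1b), where it called 1.92% lower, while limma-voom called 0 members and 0 genes. The log2 fold change was positive for 6 of the 10 genes and negative for 4, with a median of 0.34, against a median of 0.03 over all tested genes. The erythroid and megakaryocyte marker sums given above also stood wholly higher in KO, and their part in the members' differences was not tested.

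**Figure D2:**
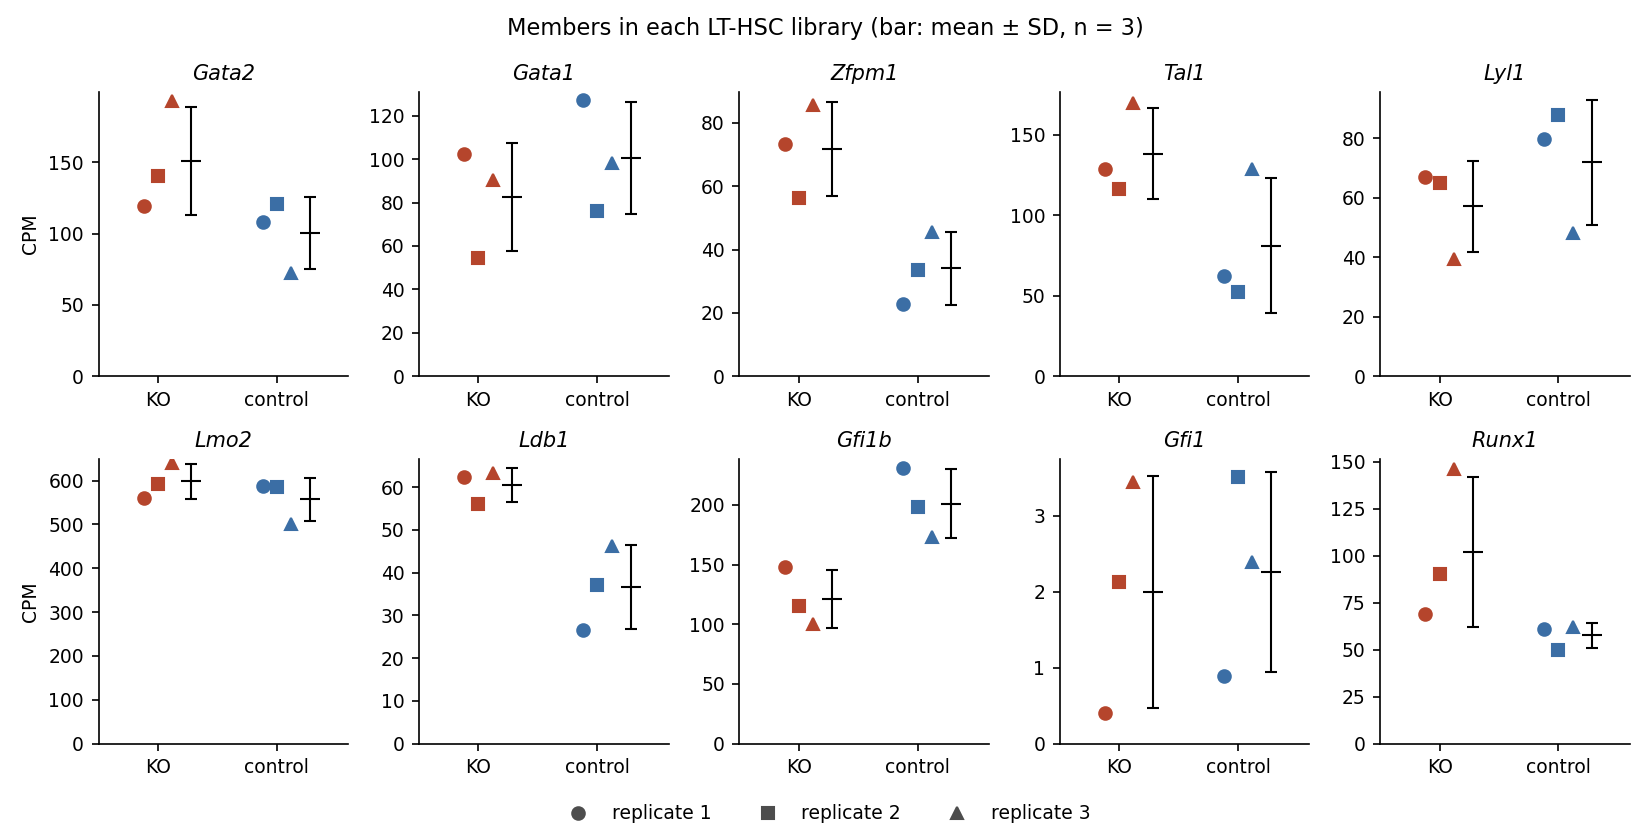
CPM of each member in the 3 KO libraries (red, left) and the 3 control libraries (blue, right), with the mean ± SD as a black bar and each axis starting at 0. KO and control points separate fully in Zfpm1, Ldb1, Gfi1b and Runx1 and overlap in the other 6 genes.

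Among the GATA factors, Gata2, the stem cell GATA factor, had 120, 140 and 193 CPM in the KO libraries and 108, 121 and 72.1 CPM in the control libraries. KO replicates 2 and 3 were above every control library, and KO replicate 1 lay just under control replicate 2. The means were 151 ± 38.0 CPM in KO, against 100.4 ± 25.3 CPM in control, a log2 fold change of 0.59 (95% interval -0.03 to 1.21) with an edgeR adjusted p = 0.475. Without KO replicate 3 that value was 0.36, and without control replicate 3 it was 0.40. Gata1, the GATA factor of maturing megakaryocytes and red cells, had 102.3, 54.5 and 90.4 CPM in KO, against 127, 75.9 and 98.4 CPM in control. These groups overlapped widely, and the log2 fold change of -0.29 (95% interval -0.98 to 0.40; edgeR adjusted p = 0.805) was within the spread of the replicates.

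Zfpm1, which encodes the GATA cofactor FOG1, showed the largest difference of the 10 genes. It had 73.3, 56.4 and 85.8 CPM in KO, against 22.8, 33.7 and 45.7 CPM in control. Even the lowest KO library exceeded the highest control library. The averages of 71.8 ± 14.8 CPM in KO, against 34.0 ± 11.5 CPM in control, gave a log2 fold change of 1.08 (95% interval 0.36 to 1.79). The edgeR adjusted p was 0.304 and the DESeq2 adjusted p was 0.0386. With each library left out in turn the log2 fold change ran from 0.85 (without control replicate 1) to 1.35 (without control replicate 3), and 0 of these fits passed the adjusted threshold in edgeR.

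Set against each other within a library, Zfpm1 per Gata1 read was higher in every KO library than in any control library, and Gata2 per Gata1 read overlapped. These ratios of raw counts were chosen after the counts had been seen and carry no test. There were 1.17, 2.57 and 2.14 Gata2 reads per Gata1 read in the KO libraries and 0.851, 1.59 and 0.733 in the control libraries. KO replicate 1 was the exception, below control replicate 2. There were 0.716, 1.03 and 0.950 Zfpm1 reads per Gata1 read in KO and 0.179, 0.444 and 0.465 in control, and here the groups did not overlap. Of the relatives, Gata3, a factor of lymphoid cells, had 2.13, 14.5 and 22.2 CPM in KO, against 7.73, 18.3 and 4.58 CPM in control. Gata4 and Gata5 had no counts in any library, and Gata6 and Zfpm2, the gene of FOG2, had at most 0.101 CPM, in KO libraries only, too few to test.

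**Figure D3:**
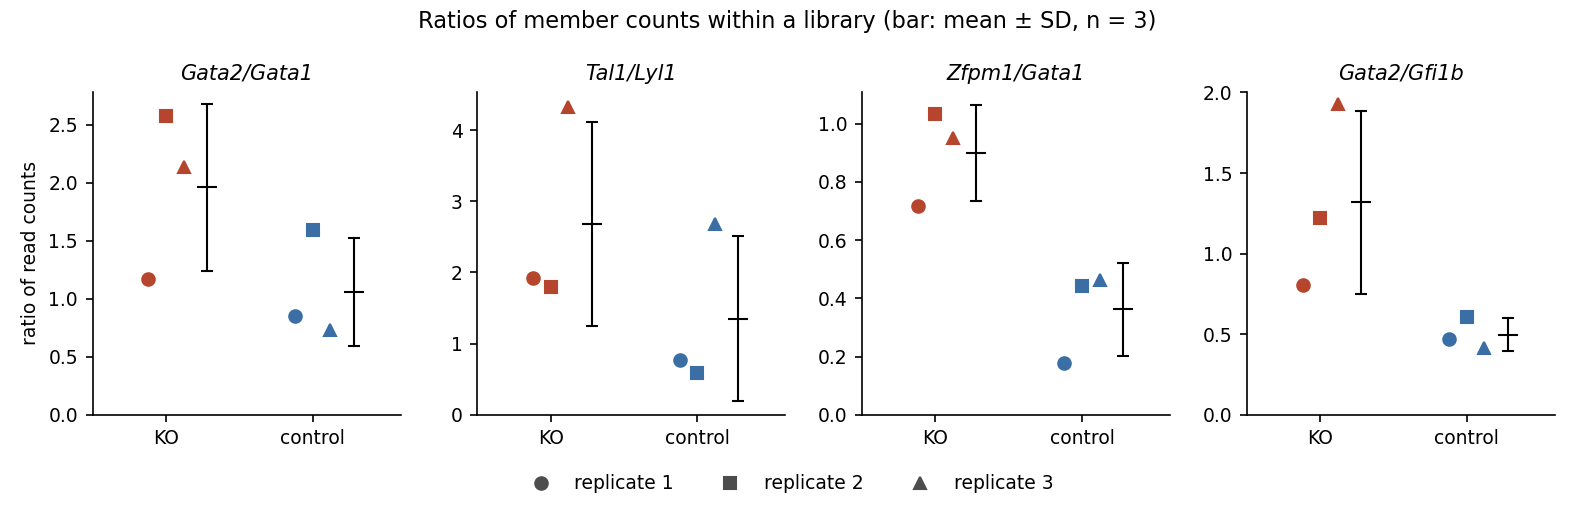
Ratio of the read counts of 2 members within each library, with KO in red on the left, control in blue on the right and the mean ± SD as a black bar. Zfpm1 over Gata1 and Gata2 over Gfi1b separate the groups, while Gata2 over Gata1 and Tal1 over Lyl1 overlap.

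The paired helix-loop-helix genes went opposite ways on average. Tal1 had 128, 116 and 170.1 CPM in KO, against 62.0, 52.2 and 129 CPM in control. Control replicate 3 stood at the level of the KO libraries, far above the other 2 controls. This is also the library with the most granulocyte transcripts, at 12260 CPM of the markers. KO replicates 3 and 2 came next, at 1176 and 604 CPM, then control replicates 2 and 1, at 226 and 176 CPM. KO replicate 1 had the fewest, at 120 CPM. The part of granulocyte transcripts in the Tal1 levels was not tested. The log2 fold change was 0.77 (95% interval -0.08 to 1.62; edgeR adjusted p = 0.494), and with each library left out in turn it ran from 0.52 (without control replicate 2) to 1.28 (without control replicate 3), with an edgeR adjusted p = 0.576 and 0.185 at these ends. Lyl1 had 67.0, 64.9 and 39.3 CPM in KO, against 79.9, 87.8 and 48.1 CPM in control. Here replicate 3 was the lowest library in both groups. The log2 fold change of -0.33 (95% interval -1.06 to 0.39; edgeR adjusted p = 0.775) did not exceed the replicate spread. There were 1.92, 1.79 and 4.33 Tal1 reads per Lyl1 read in KO and 0.776, 0.595 and 2.68 in control, so every library but control replicate 3 kept the groups apart.

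The E proteins that pair with TAL1 and LYL1 were all on the higher side in KO. Tcf3, the gene of E2A, had 42.6, 42.4 and 48.1 CPM in KO, against 19.2, 18.4 and 26.7 CPM in control, a log2 fold change of 1.05 (SE 0.24) with an edgeR adjusted p = 0.255 and a DESeq2 adjusted p = 0.0184. Tcf4, the gene of E2-2, had 70.0, 89.1 and 74.0 CPM in KO, against 21.8, 46.2 and 53.1 CPM in control, and the groups did not overlap either. Tcf12, the gene of HEB, had a mean of 60.3 ± 5.68 CPM in KO, against 46.7 ± 7.41 CPM in control with overlapping libraries. Of the Id genes, whose products keep E proteins off DNA, Id1 had a mean of 4.32 ± 2.77 CPM in KO, against 6.78 ± 5.90 CPM in control. Id2 had 3.90 to 7.74 CPM in all 6 libraries, Id4 had no counts, and Id3 was counted in KO replicate 1 alone. Of the 5 tested genes of this list 2 passed an unadjusted p of 0.05 on the higher side and 0 on the lower side, with a median log2 fold change of 0.37, and DESeq2 called 1 (Tcf3). Without KO replicate 2 the higher count was 1. The background for this list and the lists below is 5.44% of all tested genes on the higher side and 5.59% on the lower. For DESeq2 calls it is 1.64% of 14920 genes higher and 1.92% lower. KO lay wholly above control in 10.7% of all tested genes and wholly below in 8.76%.

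Lmo2 and Ldb1, the bridge of the complex, differed in behaviour. Lmo2 had 561, 592 and 641 CPM in KO, against 587, 585 and 501 CPM in control. It was the steadiest member, with a log2 fold change of 0.10 and a 95% interval of -0.24 to 0.44 (edgeR adjusted p = 0.876). Ldb1 had 62.4, 56.1 and 63.4 CPM in KO, against 26.7, 37.2 and 46.4 CPM in control. The KO libraries lay within 1.13-fold of each other and all above the controls, which spread over 1.74-fold. The difference was 1.65-fold, a log2 fold change of 0.72 (95% interval 0.15 to 1.30; edgeR adjusted p = 0.373; DESeq2 adjusted p = 0.155). It was 0.54 without control replicate 1, the lowest library. Ldb1 shares 177 exon bases, 3.84% of its exons, with Pprc1 on the opposite strand, and without a stated strand reads there cannot be assigned. Pprc1 had 2595, 1996 and 3076 counts in KO and 1224, 2121 and 1507 counts in control.

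Other genes of the LMO and LDB1 adaptor family showed no common direction. Lmo4 had 18.1, 16.9 and 19.7 CPM in KO, against 12.3, 12.97 and 10.8 CPM in control, without overlap, and Ssbp4, of the single-stranded DNA-binding proteins that stabilise LDB1, had a mean of 14.02 ± 2.15 CPM in KO, against 9.71 ± 0.597 CPM in control. Ssbp2, another of these stabilisers, had a mean of 127 ± 19.6 CPM in KO, against 167 ± 59.7 CPM in control. Lmo1 had 6.66, 8.89 and 0.433 CPM in KO, against 10.2, 9.55 and 7.01 CPM in control, with KO replicate 3 far below the rest. Of 6 tested genes, 0 passed an unadjusted p of 0.05 on the higher side and 0 on the lower side in edgeR, with 0 also called by DESeq2, and the median log2 fold change was 0.33. Without KO replicate 3 that median was -0.05, and without control replicate 1 it was -0.09. There was 1 gene on the higher side without control replicate 2 and 1 on the lower side without control replicate 3.

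Of the zinc-finger repressors, Gfi1b was the member that stood lower in KO. It had 148, 115 and 100.3 CPM in KO, against 231, 198 and 173 CPM in control. The highest KO library was below the lowest control library. KO averaged 60.3% of control, with a log2 fold change of -0.73 (95% interval -1.21 to -0.25), an edgeR adjusted p = 0.299 and a DESeq2 adjusted p = 0.0247. With each library left out in turn it ran from -0.92 to -0.62 and 0 of these fits passed in edgeR. Gfi1 had 24, 128 and 215 counts in KO and 54, 240 and 133 counts in control, which is 0.402, 2.13 and 3.45 CPM in KO, against 0.891, 3.52 and 2.39 CPM in control. The spread within KO was 8.57-fold, so its log2 fold change of -0.19 (95% interval -2.64 to 2.27) gives no direction, and the sign turned to 0.28 without KO replicate 1 and to 0.26 without control replicate 2. There were 0.808, 1.22 and 1.93 Gata2 reads per Gfi1b read in KO and 0.468, 0.609 and 0.416 in control, a separation of the groups. That ratio too was chosen after the counts were seen.

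The corepressors that GFI1B and GFI1 recruit were of both signs, 5 positive and 4 negative in log2 fold change. Kdm1a, the gene of the demethylase LSD1, had 72.2, 71.6 and 66.8 CPM in KO, against 38.9, 60.4 and 48.0 CPM in control, and Phf21a, another subunit of the LSD1-CoREST complex, 20.9, 29.1 and 30.4 CPM in KO, against 17.3, 15.1 and 10.8 CPM in control. Neither overlapped between the groups, with edgeR adjusted p-values of 0.443 and 0.380. Hmg20b, a small subunit, had a mean of 11.8 ± 1.66 CPM in KO, against 6.61 ± 2.70 CPM in control, and Ehmt2, the histone methyltransferase G9a, 51.8 ± 10.3 and 37.2 ± 16.7 CPM in KO and control. The scaffold gene Rcor1 spread from 90.1 to 110.4 CPM in KO and from 32.3 to 146.8 CPM in control. Of 9 tested genes 2 passed an unadjusted p of 0.05 on the higher side and 0 on the lower side, the median log2 fold change was 0.25, and DESeq2 called 0. The count of 2 was 0 without KO replicate 2 or KO replicate 3 and 1 in the other 4 leave-one-out fits, with 1 on the lower side without control replicate 3, and without control replicate 1 the median was -0.09.

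Runx1 had 68.8, 90.3 and 146 CPM in KO, against 60.9, 50.1 and 62.2 CPM in control. The control libraries were close together, within 1.24-fold, and the KO libraries spread over 2.13-fold, with replicate 1 barely above the controls and replicate 3 far above. The averages were 101.8 ± 40.0 CPM in KO, against 57.7 ± 6.65 CPM in control, a log2 fold change of 0.82 (95% interval 0.13 to 1.51; edgeR adjusted p = 0.389; DESeq2 adjusted p = 0.139). Without KO replicate 3 the log2 fold change was 0.45.

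Of the partners and relatives of RUNX1, 4 had a positive and 2 a negative log2 fold change. Of the 6, 3 (Cbfb, Runx3 and Runx2) lay wholly above control, against 10.7% of all tested genes. Cbfb, the gene of CBF-beta, which all RUNX proteins need to bind DNA firmly, had 130.5, 114 and 127 CPM in KO, against 57.4, 82.7 and 73.2 CPM in control. Its log2 fold change was 0.80 (SE 0.19), with an edgeR adjusted p = 0.255 and a DESeq2 adjusted p = 0.0120. Runx3, the relative active in lymphoid cells, had 89.8, 70.5 and 128 CPM in KO, against 17.5, 40.8 and 43.4 CPM in control, a log2 fold change of 1.501 (SE 0.39) with a DESeq2 adjusted p = 0.00738 and an edgeR adjusted p = 0.277. Runx2, known for bone, had a mean of 40.8 ± 6.12 CPM in KO, against 22.9 ± 9.47 CPM in control, also without overlap. Cbfa2t3, the gene of the TAL1 complex corepressor ETO2, had a mean of 167 ± 17.05 CPM in KO, against 130.0 ± 28.2 CPM in control with overlap. Its relatives Runx1t1 and Cbfa2t2 had log2 fold changes of -0.58 and -0.27, also with overlap. In this list 2 of 6 tested genes passed an unadjusted p of 0.05 on the higher side and 0 on the lower side. The median log2 fold change was 0.58. DESeq2 called 2 higher, against 1.64% of 14920 genes, and 0 lower. Nkg7, a cytotoxic lymphocyte gene, supplied nearly all of the T and NK marker sum of 248 to 263 CPM in KO and 133 to 209 CPM in control, and its part in the Runx3 difference was not tested. Of the other 7 markers Cd8a was at 0 in every library, and the highest single values were 4.501 CPM for Cd3g and 4.40 CPM for Tcf7, both in KO replicate 2.

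**Figure D4:**
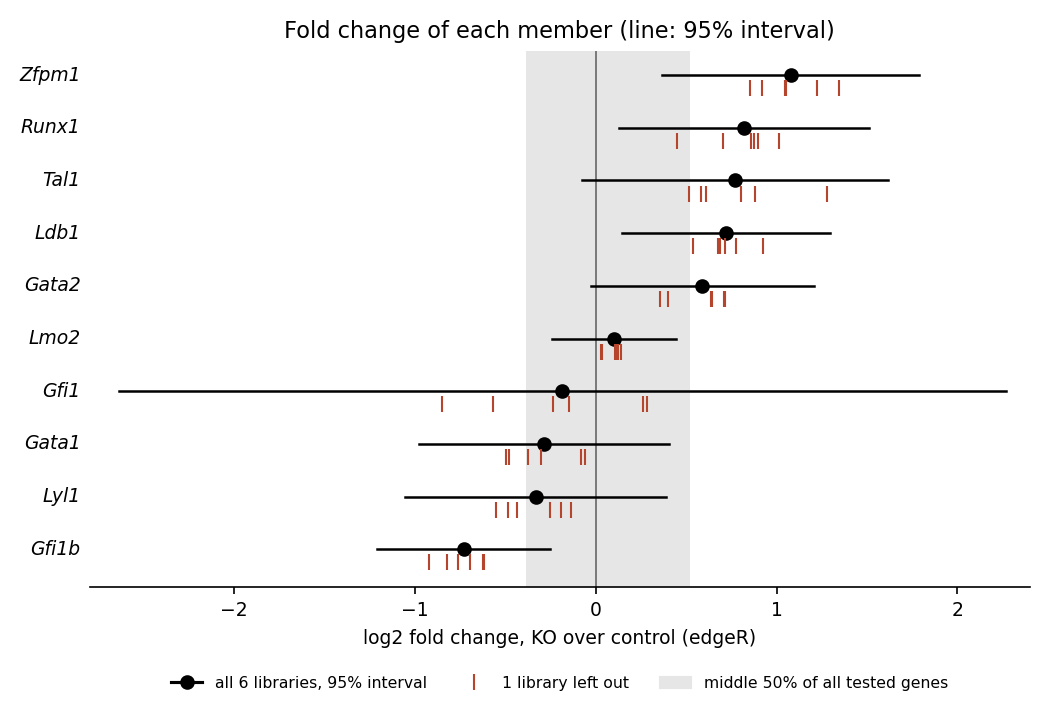
Log2 fold change of KO over control for each member (black point) with its 95% interval (line) from edgeR, and the values with each of the 6 libraries left out (red ticks), over a grey band for the middle 50% of all tested genes. The intervals of Zfpm1, Runx1 and Ldb1 lie above 0, that of Gfi1b lies below 0, and that of Gfi1 runs from -2.64 to 2.27.

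Compared with each other over the 6 libraries, Ldb1 and Zfpm1 had the most similar profiles of the 45 member pairs. The measure was the mean absolute difference of log2 CPM after each gene was centred on its own mean, and it was 0.19 for that pair. Gata2 with Lmo2 followed at 0.25, Tal1 with Ldb1 at 0.26, Lyl1 with Gfi1b at 0.26 and Tal1 with Zfpm1 at 0.27. Gata1 with Gfi1 were farthest apart at 1.21. The measure is not scaled, so a nearly flat gene can lie close to another without a shared profile. Lmo2 was such a gene, with centred values from -0.20 to 0.15. KO replicate 3 held the highest level of all 6 libraries for Gata2, Zfpm1, Tal1, Lmo2, Ldb1 and Runx1, and the lowest for Lyl1 and Gfi1b. Among 9565 other genes averaging at least 5 CPM, those nearest to Gata1 were Uchl5, B4gat1 and Coil (0.08, 0.08 and 0.09). Nearest to Gata2 were Tmx4, Ccar2 and Fbxo11 (0.08 each), to Tal1 Atxn1 and Cip2a (0.07 and 0.08), and to Runx1 Fyb, Phc1 and Ranbp6 (0.09, 0.11 and 0.12). The median gene was 0.48, 0.48, 0.63 and 0.54 away from these 4 members. With 6 libraries in 2 groups such likeness is a description and nothing more.

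Of the remaining partners that share enhancers with GATA2, TAL1, LYL1, LMO2 and RUNX1 in stem cells, 4 had a positive and 1 a negative log2 fold change. Myb was among the positive ones, at 0.22 with overlap. Fli1, an ETS factor of megakaryocytes, had 159, 216 and 207 CPM in KO, against 94.6, 95.9 and 98.1 CPM in control, with an edgeR adjusted p = 0.255 and a DESeq2 adjusted p = 6.23e-05. Erg, another ETS factor of the set, had a mean of 30.7 ± 8.47 CPM in KO, against 18.4 ± 3.27 CPM in control. Meis1, a homeobox factor of stem cells, had 194 ± 11.1 and 143 ± 35.8 CPM in KO and control. Spi1, the myeloid factor PU.1 that antagonises GATA1, went the other way with 14.8, 20.8 and 25.2 CPM in KO, against 37.4, 35.5 and 17.6 CPM in control. There control replicate 3 overlapped the KO libraries. Of 5 tested genes 2 passed an unadjusted p of 0.05 on the higher side and 0 on the lower side, with a median log2 fold change of 0.44, and DESeq2 called 1. The higher count was 1 without KO replicate 2, KO replicate 3 or control replicate 1 and 3 without control replicate 2, and without control replicate 3 there was 1 on each side.

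Megakaryocyte genes, many of them known targets of these factors, were mostly on the higher side in KO. The list was chosen with earlier results of these data known, so its counts are not an independent readout. Of 18 tested megakaryocyte genes, 12 passed an unadjusted p of 0.05 on the higher side and 0 on the lower side. Over all tested genes the shares were 5.44% and 5.59%. Of the 18 genes, 13 lay wholly above control, against 10.7% of all tested genes, and the median log2 fold change was 0.90. DESeq2 called 8 higher, against 1.64% of 14920 genes, and 0 lower, and edgeR called 0 after adjustment. Vwf, von Willebrand factor, had 57.7, 79.7 and 91.5 CPM in KO, against 15.1, 37.5 and 28.3 CPM in control, and Pf4, Itga2b and Itgb3, of platelet granules and the fibrinogen receptor, had log2 fold changes of 1.29, 1.62 and 1.45. Nfe2, a late megakaryocyte factor, was the exception in direction, at 217 ± 19.3 CPM in KO, against 302 ± 83.6 CPM in control. Without control replicate 3, 9 of 19 tested genes were on the higher side at that p and 1 on the lower, and without control replicate 2 there were 8 of 19 on the higher; the other 4 leave-one-out fits had 9 to 11. Gp6 had no counts in any library, and Tubb1 had at most 1.31 CPM, in 2 KO libraries.

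Erythroid genes had no common direction, with 14 positive and 9 negative log2 fold changes. The 4 globin genes and Icam4, an erythroid adhesion molecule, lay wholly above control in KO. These were 5 of 23 tested genes, against 10.7% of all tested genes. Wholly below control lay 1, against 8.76% of all tested genes. Hbb-bs had 6835, 2606 and 2676 CPM in KO, against 77.8, 338 and 1019 CPM in control. Klf1, the erythroid Kruppel-like factor, had 109.6, 70.2 and 72.4 CPM in KO, against 153, 88.0 and 160 CPM in control. Car2, carbonic anhydrase 2, had 2266, 1474 and 1160 CPM in KO, against 2857, 2345 and 2640 CPM in control without overlap, and Car1 averaged 1116 ± 452 and 2593 ± 1239 CPM in KO and control. Of 23 tested genes 5 passed an unadjusted p of 0.05 on the higher side and 2 on the lower side, with a median log2 fold change of 0.27. With each library left out in turn that median ran from -0.30 (without KO replicate 1, the library richest in globin reads) to 0.60 (without control replicate 3). The counts were 2 higher and 4 lower without KO replicate 1, 2 higher and 3 lower without control replicate 2, and 7 higher and 0 lower without control replicate 3. DESeq2 called 2 higher, Hbb-bs and Hbb-bt, against 1.64% of 14920 genes, and 0 lower.

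Stem cell genes had no common direction beside these. Of 20 tested genes 3 passed an unadjusted p of 0.05 on the higher side and 2 on the lower side. DESeq2 called 2 higher and 1 lower, against 1.64% and 1.92% of 14920 genes. The median log2 fold change was -0.09, and ran from -0.18 to 0.23 with each library left out in turn. Without control replicate 3 there were 3 on the higher and 4 on the lower side. Kit, the stem cell factor receptor and a known GATA2 target, had 323, 293 and 344 CPM in KO, against 106, 223 and 226 CPM in control without overlap. Egr1, an immediate early factor, differed by 1.85 (SE 0.26) in log2 fold change. Ly6a, the Sca-1 antigen by which mouse stem cells are commonly sorted, had 89.2, 206 and 72.8 CPM in KO. It had 324, 373 and 284 CPM in control, without overlap, and a DESeq2 adjusted p = 0.00328. Procr, the receptor EPCR, had 9.68, 26.7 and 4.99 CPM in KO, against 67.1, 56.5 and 22.6 CPM in control, with overlap. Hlf and Mecom, factors of the most primitive stem cells, overlapped, at 110.0 ± 21.5 and 56.6 ± 15.0 CPM in KO and 121.6 ± 19.6 and 57.4 ± 21.1 CPM in control. Mast cells also carry Gata2. Their 9 markers summed to 6.04 to 19.6 CPM in KO and 3.82 to 21.01 CPM in control, mostly from Cpa3, with 5.27 CPM of Fcer1a in KO replicate 1 against at most 0.308 CPM in control, and 5 of them were at 0 throughout. Endothelial cells carry Gata2, Tal1, Lyl1 and Lmo2. The 10 markers of endothelium and stroma summed to 57.5 to 67.9 CPM in KO and 40.9 to 63.0 CPM in control; Pecam1 had a mean of 27.9 CPM in KO, with 17.6 CPM in control, Kdr 5.80 CPM in KO, with 1.504 CPM in control, and Emcn 20.9 CPM in KO, with 25.2 CPM in control, while Cdh5 and Lepr were at 0. The part of either cell type in the members' levels was not tested.

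**Figure D5:**
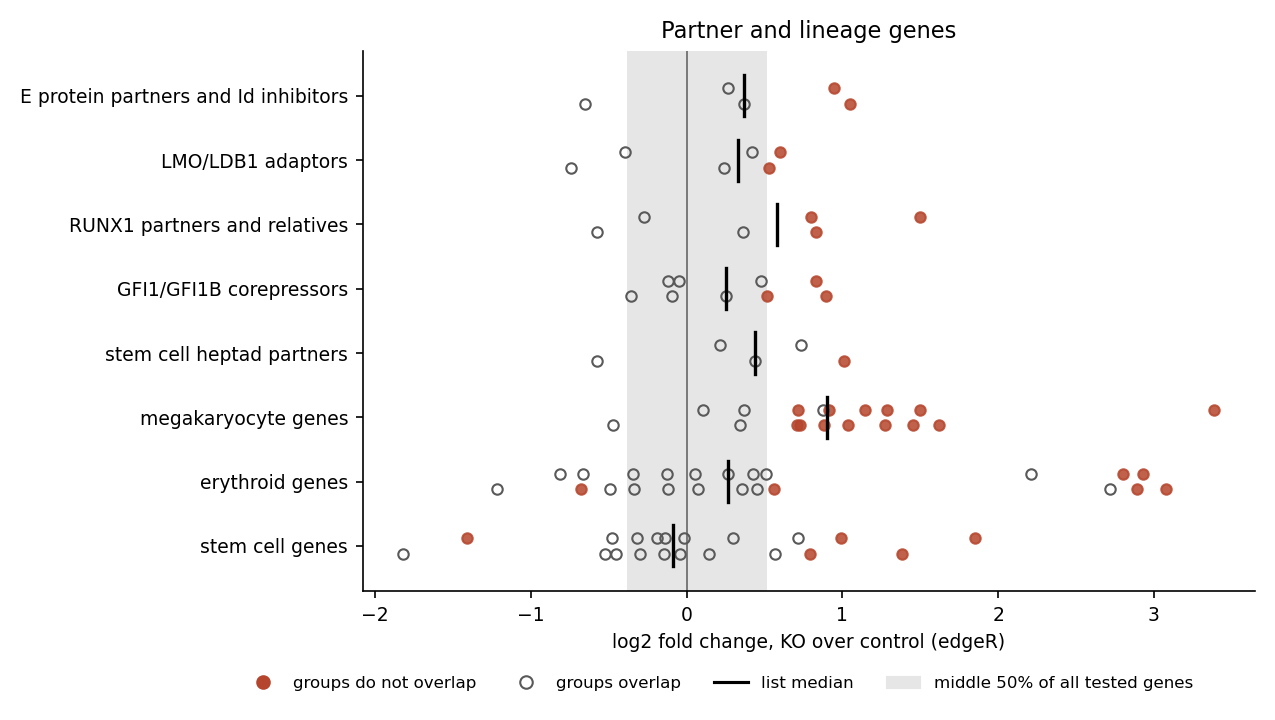
Log2 fold change of KO over control for the tested genes of each partner and lineage list, as filled red points where the 3 KO and 3 control libraries do not overlap and open points where they do, with the list median as a black bar and the middle 50% of all tested genes in grey. The megakaryocyte genes have 13 filled points of 18 and a median of 0.90, and the stem cell genes a median of -0.09. The lists were chosen with earlier results of these data known.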

How the data were processed

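RNA from 6 LT-HSC samples was extracted with TRIZOL and made into TruSeq libraries, per the labels' protocols. The tools named, without roles, are HISAT2 2.1, featureCounts 1.6.4, bcl2fastq 2.19, cutadapt 1.16.5 and DESeq2 2.11.40.6, with mm10 as build, per the submitters' processing notes; no source used here states the strand. The authors deposited whole-number read counts per gene, not normalized, 1 table per sample, with 47561 rows, of which 2046 carry assembler names. Members and lists were chosen with earlier results of these data known.

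Genes were filtered with filterByExpr, scaled with TMM and tested with edgeR 4.0.16 (quasi-likelihood F test, KO against control, R 4.3.3), with Benjamini-Hochberg adjustment over 16022 genes and a threshold of 0.05. SEs are the log2 fold change divided by the root of F. CPM are relative to the TMM-scaled library total, and 3 counts equal 0.0440 to 0.0539 CPM. The common biological coefficient of variation was 0.755, and the lowest adjusted p of any gene was 0.172. No 2 libraries agreed within sampling noise. DESeq2 1.42.0 and limma 3.58.1 (voom) were alternatives, beside other scalings, filters, a replicate block and each library left out. With 3 against 3, an exact permutation test of 1 gene cannot go below p = 0.1. The edgeR step was tested on simulated data. The rule for named genes took all 10 members, Piezo1, up to 4 tested genes of smallest p in each list and the 3 nearest profiles to Gata1, Gata2, Tal1 and Runx1; other list genes named, among them Nfe2, Klf1, Car1, Kit, Hlf, Mecom, Rcor1, Id2, Icam4, Runx1t1, Cbfa2t2 and genes without counts, were chosen after their values were seen. Some genes that the rule names are not reported here. Motifs were searched in RefSeq promoter windows (GRCm38.p6).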

Additional observations from a re-analysis of the deposited data

How the results depend on the processing

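Adjusted calls over all genes depended on the tool. edgeR called 0 genes higher and 0 lower in KO, whereas DESeq2 called 244 higher and 286 lower, and a filter of 5 CPM in 3 libraries gave 1 lower. With each library left out in turn, edgeR called 0 to 1 genes higher. At an unadjusted p under 0.05 the leave-one-out counts ran from 562 to 1339 higher and from 573 to 1299 lower. Among the members, 135 alternative values kept their direction and side of the threshold. They include values with the median of all genes subtracted, which keep the adjusted p of the main fit. Only the direction of those values could change. DESeq2 moved Zfpm1 (1.07 on the log2 scale) and Gfi1b (-0.75) past the threshold. The sign of Gfi1 turned to 0.28 without KO replicate 1 and to 0.26 without control replicate 2, with a leave-one-out range of -0.85 to 0.28; Gfi1 was not tested under the 5 CPM filter.

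Whether replicate numbers pair the samples was not settled. Same-number correlations of the deviations were 0.038, 0.016 and 0.033, and those across numbers ran from -0.0389 to 0.00788. Each library correlated best with its own number, a hint from the data and not the design. With a replicate block edgeR called 0 genes higher and 0 lower after adjustment. Before adjustment 835 genes passed 0.05 on the higher and 762 on the lower side, and Zfpm1 had a log2 fold change of 1.11. The block changed the SEs of the members in both directions, from 0.360 to 0.226 for Tal1 and from 0.263 to 0.312 for Gata2.

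Over the length of all exons together, chosen after seeing the data, the levels in KO and control were 27.97 and 18.6 CPM per kilobase for Gata2, 276 and 258 for Lmo2, 13.2 and 7.98 for Ldb1, and 8.47 and 4.798 for Runx1. A comparison with RefSeq transcript lengths was not run. Of the members, depth limits Gfi1 alone, which had 24 to 240 counts per library.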

Other observations

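Lyl1 shares 4 exon bases with Nfix, a nuclear factor gene of blood stem cells on the opposite strand. Nfix had 1679, 2176 and 2564 counts in KO and 803, 2102 and 1190 counts in control, with control replicate 2 inside the KO range. Gfi1 and Runx1 share 3.17% and 0.882% of their exon bases with the noncoding genes A430072P03Rik and Gm26626, whose counts were not analysed here.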
